A study of Mus musculus with 20 samples.

Results

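Bone marrow stroma sends the signals that make and restrain osteoclasts, the bone-resorbing cells, and 5 genes of that exchange were followed in sorted mouse stromal cells. The genes were Csf1, Il34, Tnfsf11, Tnfrsf11b and Pth1r, taken by symbol from the 24347 genes listed for each library. All 5 were above the filter on low values and were tested beside 12938 genes in all.

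Osteoclasts form from blood-lineage precursors under instruction from stromal and bone-forming cells. CSF1 and interleukin 34 are the ligands of the receptor CSF1R and keep those precursors alive and dividing. RANKL, encoded by Tnfsf11, binds RANK (Tnfrsf11a) on the precursors and drives their fusion and activation, while osteoprotegerin, encoded by Tnfrsf11b, is a secreted decoy that binds RANKL and blocks it. Parathyroid hormone and the related peptide PTHrP act on stromal and bone-forming cells through their receptor, encoded by Pth1r, and are known to raise RANKL and lower osteoprotegerin there.

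RNA was measured in 12 libraries, 3 in each of the groups CAR ko, CAR wt, PaS ko and PaS wt. The cells came from crushed, collagenase-digested femora and tibiae of C57BL/6 mice and were sorted as CD45-, CD31-, Lin- and PDGFRα+. CAR cells (CXCL12-abundant reticular cells) were the Sca1- fraction and PaS cells the Sca1+ fraction, a population rich in mesenchymal progenitors. Mice of the ko groups were Ebf1fl/fl;Prx1+/cre and mice of the wt groups Ebf1+/+;Prx1+/cre, so that all groups carried the Prx1-driven Cre, which is active in limb mesenchyme. Ages, the number of animals behind a library and whether replicates came from separate animals are not given, and the p-values cover the spread between these libraries alone, which may be technical. Of the 20 samples of the series, 8 are chromatin accessibility samples and were not analysed here.

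Levels are in FPKM, fragment counts scaled by transcript length and library size, so that genes of different length can be set side by side. The libraries summed to 491801 to 526074 FPKM, the read depth is unknown, and zeros made up 24.6% of the genes of PaS wt replicate 1 and 33.3% to 37.0% of those of the remaining 11 libraries. Ebf1 itself was not lower in libraries labelled ko: it averaged 57.5 ± 1.99 FPKM in CAR ko and 48.1 ± 1.10 FPKM in CAR wt libraries, and 62.5 ± 2.18 FPKM in PaS ko and 55.9 ± 5.89 FPKM in PaS wt libraries (SD, n = 3 each). In the limma fit described below, Ebf1 was called higher in CAR ko (log2 fold change 0.25, adjusted p = 0.0395), a call lost when any single CAR library was left out. It was not called in PaS ko (0.16, adjusted p = 0.248). Values of a whole gene can include exons outside the deleted part, so Ebf1 does not check the labels, and ko and wt below mean libraries so labelled. The Sca1 gene Ly6a followed the sort, at 6.67 to 12.3 FPKM in CAR ko, 4.03 to 5.58 FPKM in CAR wt, 1524 to 1590 FPKM in PaS ko and 1740 to 2176 FPKM in PaS wt libraries. Ly6a does not measure CAR cells or their RNA in PaS libraries. The CAR marker Adipoq was at 461 to 470 FPKM in PaS wt and 1775 to 1904 FPKM in CAR wt libraries. Lepr was at 242 to 270 FPKM and 664 to 750 FPKM in the same groups. The part of CAR cells in the PaS values was not tested. In bulk RNA, fewer cells of a type and less RNA per cell cannot be told apart.

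Across the 5 genes, the ko genotype went with less Csf1 in PaS cells, less Il34 in CAR cells, and more Tnfrsf11b and Pth1r in both populations, while Tnfsf11 was not called in either. Relative to wt, 2 of the 5 were called higher in CAR ko (Tnfrsf11b and Pth1r), where 6.51% of all tested genes were called higher, and 1 was called lower (Il34), where 5.74% were called lower. Without CAR ko replicate 1, CAR ko replicate 3 or CAR wt replicate 3, only 1 member, Pth1r, was called in CAR cells. In PaS ko, 2 were called higher (the same Tnfrsf11b and Pth1r), against 3.41% of tested genes, and 1 was called lower (Csf1), against 4.03%. A call is a Benjamini-Hochberg adjusted p under 0.05 over all tested genes in the limma fit of log2(FPKM + 1). The same shares of all tested genes apply to the counts of marker and pathway lists below. The ko and wt libraries did not overlap for 4 members in CAR cells (all but Tnfsf11), against 29.9% of tested genes, and for 4 in PaS cells (all but Il34), against 23.4%. None of the 5 differed between the populations in its response to the genotype at that threshold (0 called, against 6.58% of tested genes), although 2 of them, Il34 and Tnfrsf11b, had an unadjusted p under 0.05.

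Markers of the sorted populations themselves moved beside these results. Of 15 CAR cell markers, 1 was called higher and 6 lower in CAR ko (median log2 fold change -0.21), and 1 higher and 1 lower in PaS ko (median 0.08). The 1 called higher in CAR ko was Ebf1, the targeted gene, which is on this list. Of 15 PaS cell markers, 6 were called higher and 3 lower in CAR ko (median 0.35), and 1 higher and 8 lower in PaS ko (median -0.36). The CAR markers summed to 3.86% to 4.40% of FPKM in CAR ko, 4.27% to 4.40% in CAR wt, 1.38% to 1.57% in PaS ko and 1.33% to 1.41% in PaS wt libraries. The PaS markers summed to 0.615% to 0.683% in CAR ko, 0.405% to 0.411% in CAR wt, 5.37% to 5.63% in PaS ko and 3.48% to 6.11% in PaS wt libraries, where Gsn, an abundant PaS marker, is listed at 0 in PaS wt replicate 2. No marker of either list was at 0 in a whole group, and their part in the results on the 5 genes was not tested.

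**Figure D1:**
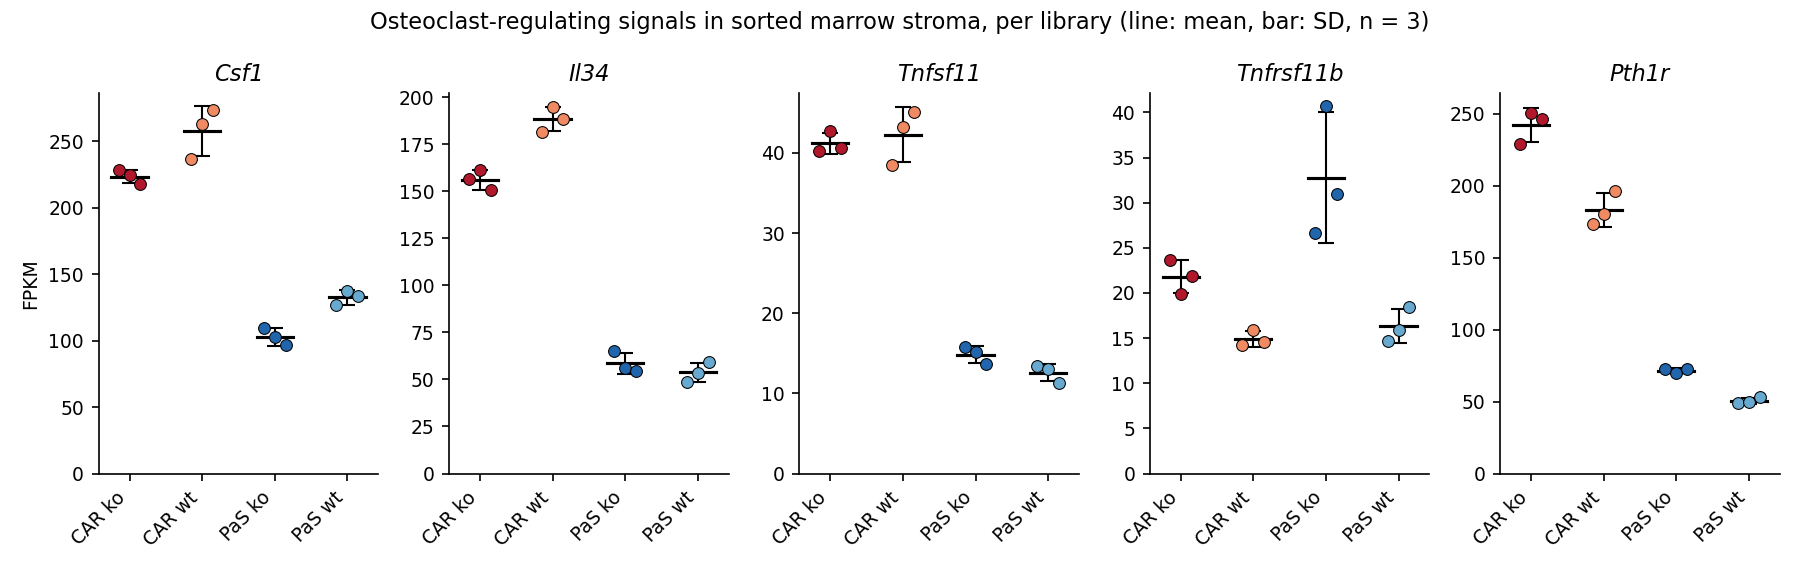
FPKM (vertical axes, from 0) of Csf1, Il34, Tnfsf11, Tnfrsf11b and Pth1r in each library of CAR ko, CAR wt, PaS ko and PaS wt cells, with points for libraries, lines for means and bars for SD (n = 3). CAR libraries stand above PaS libraries for 4 of the genes, while Tnfrsf11b is highest in PaS ko, at 26.6 to 40.8 FPKM.

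Csf1, whose product macrophages and osteoclast precursors need to survive, lies on chromosome 3 (107741048 to 107760469, minus strand, GRCm38.p6) and is protein-coding. Its mean over all libraries stood above that of 96.9% of tested genes. The 250 bases before its start are shown because they hold the core letters of the site bound by EBF1, the factor targeted in these mice. They are RefSeq sequence of GRCm38.p6 at chr3:107760470-107760719, minus strand, with the EBF core CCCNNGGG in capitals:
Csf1 promoter: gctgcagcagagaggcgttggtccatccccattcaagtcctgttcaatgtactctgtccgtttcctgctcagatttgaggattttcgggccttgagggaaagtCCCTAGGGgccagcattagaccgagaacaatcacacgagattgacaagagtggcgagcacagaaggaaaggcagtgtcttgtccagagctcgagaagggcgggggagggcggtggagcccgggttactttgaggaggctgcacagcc

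Csf1 had 228, 224 and 218 FPKM in CAR ko libraries, against 237, 263 and 274 FPKM in CAR wt libraries. In PaS ko libraries it had 110, 102 and 96.4 FPKM, against 127, 137 and 134 FPKM in PaS wt libraries. Every ko library was below every wt library of its population, and the order CAR wt, CAR ko, PaS wt, PaS ko had no overlap between neighbours. In PaS cells the mean fell by 22.4%, to 103 ± 6.55 FPKM in PaS ko against 132 ± 5.43 FPKM in PaS wt libraries (log2 fold change -0.36, SE 0.0668, adjusted p = 0.00244). In CAR cells it was 223 ± 5.17 FPKM in ko and 258 ± 18.9 FPKM in wt libraries, a log2 fold change of -0.20 (SE 0.0668, 95% interval -0.346 to -0.0617) that did not pass (adjusted p = 0.0599). Without CAR wt replicate 1, the lowest of its group, it would have passed, at -0.26 (adjusted p = 0.027). The 2 effects differed by 0.16 (SE 0.0944, 95% interval -0.0422 to 0.361, adjusted p = 0.378).

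Il34, the second CSF1R ligand, lies on chromosome 8 (110741829 to 110805949) and had a mean above that of 94.8% of tested genes. It had 157, 161 and 151 FPKM in CAR ko libraries, against 182, 195 and 188 FPKM in CAR wt libraries. In PaS ko libraries it had 65.1, 56.2 and 54.6 FPKM, against 48.9, 53.3 and 59.2 FPKM in PaS wt libraries. The CAR groups were apart, whereas the PaS groups overlapped. In CAR cells Il34 averaged 156 ± 5.22 FPKM in ko and 188 ± 6.43 FPKM in wt libraries (log2 fold change -0.27, SE 0.0795, adjusted p = 0.0375). This call was lost without any single one of the 6 CAR libraries, at log2 fold changes of -0.29 to -0.24 and adjusted p of 0.0614 to 0.122, and with the replicate block, at 0.0565. In PaS cells the means were 58.6 ± 5.65 FPKM in ko and 53.8 ± 5.21 FPKM in wt libraries, a log2 fold change of 0.12 (95% interval -0.0478 to 0.291, adjusted p = 0.456). The effects had opposite signs and differed by -0.39 (SE 0.112, adjusted p = 0.051), which passed at 0.0459 without PaS ko replicate 3 and at 0.0236 without PaS wt replicate 3.

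Because the ligands share 1 receptor, their ratio within a library was compared, as log2 of Csf1 + 1 over Il34 + 1 (FPKM). It was 0.54, 0.48 and 0.53 in CAR ko libraries, against 0.38, 0.43 and 0.54 in CAR wt libraries, and these overlapped (difference 0.06, exact two-sided permutation p = 0.3). It was 0.74, 0.85 and 0.81 in PaS ko libraries, against 1.35, 1.35 and 1.16 in PaS wt libraries, with no overlap and a difference of -0.48. The exact two-sided permutation p was 0.1, the smallest that 3 against 3 libraries allow. Csf1 thus exceeded Il34 in all 12 libraries, by a linear ratio of 1.39 to 1.46 in CAR ko, 1.30 to 1.45 in CAR wt, 1.68 to 1.82 in PaS ko and 2.25 to 2.59 in PaS wt libraries.

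Beside the Csf1 and Il34 results stand transcripts of the cells that answer them. The 16 monocyte and macrophage genes summed to 0.0435% to 0.0478% of all FPKM in CAR ko, 0.0914% to 0.115% in CAR wt, 0.185% to 0.202% in PaS ko and 0.255% to 0.259% in PaS wt libraries. Of the 15 tested, 9 were called lower and 0 higher in CAR ko, with a median log2 fold change of -0.72 beside 0.01 for all tested genes. In PaS ko, 6 were called higher and 4 lower, with a median of 0.44 beside 0.00. The lower sum in PaS ko followed Lyz2, the most abundant of these genes, at 419 to 441 FPKM in PaS ko and 1005 to 1041 FPKM in PaS wt libraries. Macrophage genes such as C1qa went the other way, at 77.9 to 101 FPKM in PaS ko and 32.6 to 39.4 FPKM in PaS wt libraries. The sum is therefore no measure of the list as a whole in PaS cells. None of the 16 was at 0 in all 3 libraries of any group, and their part in the results on the ligands was not tested.

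Tnfsf11, which encodes RANKL, lies on chromosome 14 (78277446 to 78308043, minus strand) and had a mean above that of 77.9% of tested genes. Its promoter is shown because Tnfsf11 has the most direct role in osteoclast formation and is the member called in neither ko comparison. The 250 bases lie at chr14:78308044-78308293 of GRCm38.p6, minus strand, from RefSeq, with the TATA box letters TATAA in capitals together with the overlapping match on the other strand:
Tnfsf11 promoter: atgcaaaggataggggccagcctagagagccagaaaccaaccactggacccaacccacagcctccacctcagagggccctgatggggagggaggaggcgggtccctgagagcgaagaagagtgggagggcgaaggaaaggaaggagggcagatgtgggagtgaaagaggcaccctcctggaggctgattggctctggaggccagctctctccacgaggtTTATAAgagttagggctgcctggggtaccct

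Tnfsf11 had 40.2, 42.7 and 40.6 FPKM in CAR ko libraries, against 38.5, 43.3 and 45.1 FPKM in CAR wt libraries. In PaS ko libraries it had 15.7, 15.1 and 13.7 FPKM, against 13.4, 13.0 and 11.3 FPKM in PaS wt libraries. The CAR groups overlapped, and each PaS ko library was above each PaS wt library. The log2 fold change was -0.03 in CAR ko against CAR wt (SE 0.0918, 95% interval -0.23 to 0.162, adjusted p = 0.872) and 0.22 in PaS ko against PaS wt (SE 0.0918, 95% interval 0.026 to 0.417, adjusted p = 0.19). Neither passed the threshold. The effects differed by -0.26 (95% interval -0.533 to 0.021, adjusted p = 0.292).

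Tnfrsf11b, the gene of the decoy osteoprotegerin, lies on chromosome 15 (54250619 to 54278484), with a mean above that of 72.3% of tested genes. It had 23.6, 19.9 and 21.9 FPKM in CAR ko libraries, against 14.3, 15.9 and 14.6 FPKM in CAR wt libraries. In PaS ko libraries it had 26.6, 40.8 and 31.0 FPKM, against 14.7, 15.9 and 18.5 FPKM in PaS wt libraries. All 6 ko libraries were above all 6 wt libraries, and PaS ko was the most variable group, with a coefficient of variation of 22.1%. In PaS cells Tnfrsf11b averaged 32.8 ± 7.23 FPKM in ko and 16.3 ± 1.91 FPKM in wt libraries (log2 fold change 0.95, SE 0.132, adjusted p = 2.29e-04). In CAR cells it averaged 21.8 ± 1.86 FPKM in ko and 14.9 ± 0.873 FPKM in wt libraries (log2 fold change 0.52, SE 0.132, adjusted p = 0.0171). The CAR call was lost without CAR ko replicate 1 (adjusted p = 0.0706), CAR ko replicate 3 (0.0524), CAR wt replicate 1 (0.0608) or CAR wt replicate 3 (0.0537), at log2 fold changes of 0.46 to 0.51, and without the filter (0.0559). The effects differed by -0.43 (SE 0.187, adjusted p = 0.212), with the larger rise in PaS cells.

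The balance of RANKL over its decoy was taken within each library as log2 of Tnfsf11 + 1 over Tnfrsf11b + 1 (FPKM). It was 0.74, 1.06 and 0.86 in CAR ko libraries, against 1.37, 1.39 and 1.56 in CAR wt libraries. It was -0.72, -1.37 and -1.12 in PaS ko libraries, against -0.12, -0.27 and -0.66 in PaS wt libraries. In both populations every ko library was below every wt library, with differences of -0.55 in CAR cells and -0.72 in PaS cells (exact two-sided permutation p = 0.1 each, the smallest possible). In linear terms Tnfsf11 was 1.70 to 2.15 times Tnfrsf11b in CAR ko, 2.70 to 3.09 times in CAR wt, 0.371 to 0.590 times in PaS ko and 0.614 to 0.912 times in PaS wt libraries. Thus Tnfsf11 was above Tnfrsf11b in all 6 CAR libraries and below it in all 6 PaS libraries. Both are transcript levels, and no protein was measured.

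**Figure D2:**
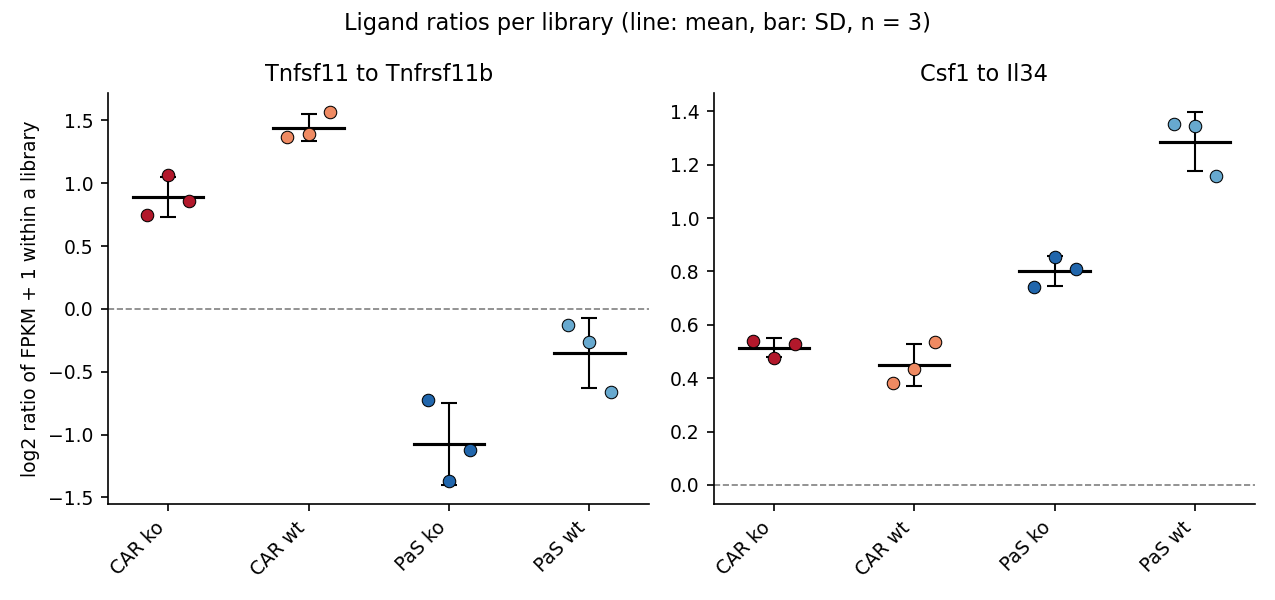
Log2 ratio of FPKM + 1 within each library (vertical axes) for Tnfsf11 to Tnfrsf11b and for Csf1 to Il34 in CAR ko, CAR wt, PaS ko and PaS wt cells, with points for libraries, lines for means, bars for SD (n = 3) and a dashed line at equal levels. The ratio of Tnfsf11 to Tnfrsf11b averages 0.89 in CAR ko, 1.44 in CAR wt, -1.07 in PaS ko and -0.35 in PaS wt libraries.

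Tnfrsf11b is also made by cartilage cells, and their genes were read beside it, with calls in both directions in CAR ko. Of 12 tested chondrocyte markers, 10 were called higher and 0 lower in PaS ko (median log2 fold change 1.09), and 6 higher and 4 lower in CAR ko (median 0.34). Comp was among the 6 higher in CAR ko, at 420 to 427 FPKM in CAR ko and 272 to 295 FPKM in CAR wt libraries. Col9a3, a cartilage collagen gene, was among the 4 lower, at 5.25 to 6.72 FPKM in CAR ko and 24.2 to 32.5 FPKM in CAR wt libraries. It was higher in PaS ko, at 9.09 to 9.26 FPKM, than in PaS wt libraries, at 2.12 to 2.77 FPKM. The 15 markers summed to 0.253% to 0.282% of FPKM in CAR ko, 0.229% to 0.258% in CAR wt, 0.390% to 0.440% in PaS ko and 0.299% to 0.346% in PaS wt libraries. Matn1, a cartilage matrilin that did not pass the filter, was at 0 to 0.377 FPKM in CAR ko libraries, at 0 in all CAR wt libraries, at 0.485 to 1.40 FPKM in PaS ko libraries and at 0 to 0.108 FPKM in PaS wt libraries. The part of these transcripts in the Tnfrsf11b values was not tested.

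Pth1r, the receptor through which parathyroid hormone reaches the stroma, lies on chromosome 9 (110722085 to 110747145, minus strand) and had a mean above that of 95.6% of tested genes. The RefSeq table holds 3 promoters of it, and the first, at chr9:110747146-110747395 of GRCm38.p6, minus strand, is shown because it holds the same EBF core, in capitals:
Pth1r promoter: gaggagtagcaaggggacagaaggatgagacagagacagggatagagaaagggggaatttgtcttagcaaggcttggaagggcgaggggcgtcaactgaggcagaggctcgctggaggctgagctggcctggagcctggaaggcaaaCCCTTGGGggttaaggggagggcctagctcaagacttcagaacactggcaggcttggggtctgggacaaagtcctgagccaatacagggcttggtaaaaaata

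Pth1r had 229, 251 and 247 FPKM in CAR ko libraries, against 173, 180 and 197 FPKM in CAR wt libraries. In PaS ko libraries it had 72.6, 69.7 and 72.4 FPKM, against 48.7, 49.9 and 53.0 FPKM in PaS wt libraries. Within each population all ko libraries were above all wt libraries, and the order CAR ko, CAR wt, PaS ko, PaS wt had no overlap. The mean rose to 242 ± 11.7 FPKM in CAR ko, against 183 ± 11.9 FPKM in CAR wt libraries (log2 fold change 0.40, SE 0.0646, adjusted p = 6.85e-04). It rose to 71.6 ± 1.64 FPKM in PaS ko, against 50.5 ± 2.22 FPKM in PaS wt libraries (log2 fold change 0.49, SE 0.0646, adjusted p = 1.27e-04). Both calls held without any single library, and the effects differed by -0.09 (95% interval -0.289 to 0.1, adjusted p = 0.627).

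Pth1r is abundant in bone-forming cells, and markers of these cells were read beside it. Of 17 osteoblast markers, 13 were called higher and 1 lower in CAR ko (median log2 fold change 0.61), and 7 higher and 1 lower in PaS ko (median 0.35). Their sum was 9.87% to 11.1% of FPKM in CAR ko, 7.54% to 7.76% in CAR wt, 2.14% to 2.29% in PaS ko and 1.64% to 1.81% in PaS wt libraries, with none of the 17 at 0 in a whole group. The collagen genes Col1a1, listed at 0 in CAR ko replicates 2 and 3, and Col1a2, listed at 0 in CAR ko replicate 2, lower the CAR ko sums, and Col1a1 is the 1 marker called lower in CAR ko. The part of bone-forming cells in the Pth1r values was not tested.

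**Figure D3:**
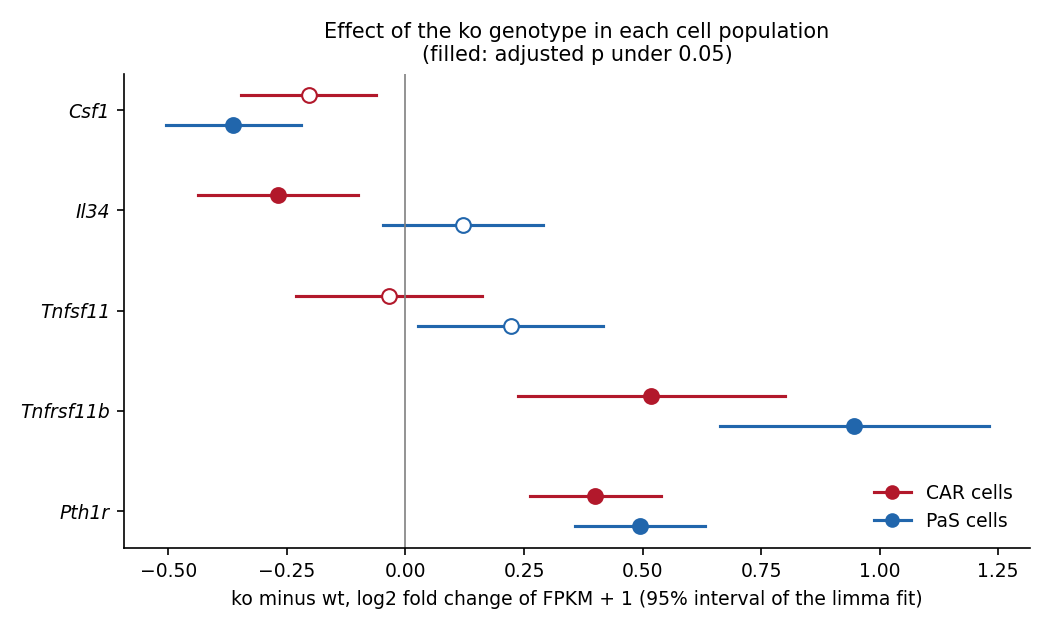
Log2 fold change of FPKM + 1, ko minus wt (horizontal axis), of the 5 genes in CAR cells (upper, red) and PaS cells (lower, blue), with 95% intervals of the limma fit and filled points where the adjusted p is under 0.05. Pth1r and Tnfrsf11b lie right of 0 in both populations, at 0.40 and 0.52 in CAR cells and 0.49 and 0.95 in PaS cells, and Csf1 lies left of 0 in both.

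Motif letters were searched on both strands of the 250-base promoters in the RefSeq table, which held 1 for Csf1, 1 for Tnfsf11 and 3 for Pth1r. The EBF core CCCNNGGG, which reads the same on both strands, occurred in the Csf1 promoter 147 to 140 bases before the start and in the first Pth1r promoter 103 to 96 bases before it, and in 11.8% of all 32851 promoters. TATAA occurred in the Tnfsf11 promoter 30 to 26 bases before the start, overlapping its match on the other strand at 31 to 27, and in 22.8% of promoters. The cAMP response half-site TGACG occurred once among these promoters, on the other strand of the first Pth1r promoter 161 to 157 bases before the start, and in 17.8% of all promoters. The RUNX site TGTGGT was not found in them and occurs in 14% of all promoters. Il34 and Tnfrsf11b had no promoter in the table and could not be searched. In PaS ko cells Csf1 fell and Pth1r rose, and a link between the EBF core and either change was not tested. A match of letters is a description and not a binding site.

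Between the populations, transcripts of both CSF1R ligands, of RANKL and of the PTH receptor were higher in CAR than in PaS libraries in either genotype. In wt cells, 4 of the 5 genes were called higher in CAR than in PaS libraries, where 20.5% of tested genes were higher and 22.7% lower. Of the 15 CAR cell markers, 14 were called higher and 1, Ebf1, lower in the same comparison (median log2 fold change 1.48). Pth1r was 3.58-fold higher in CAR wt than in PaS wt libraries (log2 fold change 1.84, SE 0.0646, adjusted p = 2.01e-12). Il34 was 3.46-fold higher (log2 fold change 1.79, adjusted p = 3.46e-11), Tnfsf11 3.18-fold (1.67, adjusted p = 4.69e-10) and Csf1 1.94-fold (0.95, adjusted p = 9.44e-09), all as folds of FPKM + 1. Tnfrsf11b did not differ beyond its spread, with 14.9 FPKM in CAR wt and 16.3 FPKM in PaS wt libraries (log2 fold change -0.12, 95% interval -0.402 to 0.161, adjusted p = 0.497).

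In ko cells the same 4 were called higher in CAR libraries, where 17% of tested genes were higher, and Tnfrsf11b was the 1 called lower, where 19.8% were lower. Tnfrsf11b had a log2 fold change of -0.55 in CAR ko against PaS ko (SE 0.132, adjusted p = 0.00372). Pth1r was 3.35-fold higher, Tnfsf11 2.67-fold, Il34 2.64-fold and Csf1 2.16-fold higher in CAR ko than in PaS ko libraries. These comparisons share their libraries with the ko comparisons above and add no independent support to them. PaS wt replicate 1, the library with fewer genes at 0, decided no call of the 5 genes: without it 3 were called in PaS ko against PaS wt and 4 in CAR wt against PaS wt, as with it.

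The receptors and partners of these molecules were read from a list of 12, of which 8 passed the filter. RANK itself (Tnfrsf11a) did not, with 0 to 0.0345 FPKM in CAR ko, 0 to 0.207 FPKM in CAR wt, 0.430 to 1.35 FPKM in PaS ko and 0.168 to 0.479 FPKM in PaS wt libraries. Pth, the hormone gene, was listed at 0 in all 12. Of the 8 tested, 3 were called higher and 1 lower in CAR ko (median -0.05), and 2 higher and 1 lower in PaS ko (median -0.08), beside medians of 0.01 and 0.00 for all tested genes. Over all tested genes, 6.51% were called higher and 5.74% lower in CAR ko, and 3.41% higher and 4.03% lower in PaS ko.

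Pthlh, which encodes PTHrP, the local ligand of the PTH receptor, was the partner with the widest gap between populations. It had 4.58, 4.91 and 4.71 FPKM in CAR ko libraries, against 2.58, 3.29 and 2.57 FPKM in CAR wt libraries (log2 fold change 0.59, adjusted p = 0.00142). It had 48.4, 46.1 and 52.4 FPKM in PaS ko libraries, against 63.7, 62.3 and 53.8 FPKM in PaS wt libraries (log2 fold change -0.29, adjusted p = 0.13). All ko libraries were above wt in CAR cells and below wt in PaS cells, and the effects differed by 0.88 (SE 0.148, adjusted p = 0.00183). With a pseudocount of 5 in place of 1 the CAR effect was 0.32 and the difference 0.58, both still called. Thus the receptor Pth1r was higher in CAR cells and its ligand Pthlh in PaS cells, with Pthlh at 2.82 ± 0.412 FPKM in CAR wt and 59.9 ± 5.34 FPKM in PaS wt libraries (adjusted p = 6.13e-14).

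Ramp2, an accessory protein of calcitonin-family receptors that also binds the PTH receptor, fell to 193 ± 2.44 FPKM in PaS ko, against 278 ± 1.64 FPKM in PaS wt libraries (log2 fold change -0.53, adjusted p = 7.08e-04). Ptprz1, a phosphatase receptor described as binding interleukin 34, rose in both populations, by log2 fold changes of 0.87 in CAR ko (adjusted p = 0.00352) and 0.84 in PaS ko (adjusted p = 0.00588, and 0.38 with a pseudocount of 5). Sdc1, a surface proteoglycan that also binds interleukin 34, had log2 fold changes of -0.21 in CAR ko (adjusted p = 0.0626) and 0.28 in PaS ko (adjusted p = 0.0181), and the PaS call was lost without PaS ko replicate 1, PaS wt replicate 2 or PaS wt replicate 3, at adjusted p of up to 0.0884. Lgr4, a second receptor for RANKL that limits osteoclast formation, rose to 13.0 ± 1.39 FPKM in CAR ko, against 8.49 ± 0.311 FPKM in CAR wt libraries (adjusted p = 0.00702). Csf1r, the receptor of CSF1 and interleukin 34 on precursors and macrophages, fell to 1.64 ± 0.795 FPKM in CAR ko, against 4.39 ± 0.319 FPKM in CAR wt libraries (log2 fold change -1.08, adjusted p = 0.00186, and -0.51 with a pseudocount of 5). Csf1r is itself on the monocyte and macrophage list, so it is counted in the sums and calls given above.

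Other stromal factors that promote osteoclasts were called in either direction. Of 20 tested, 4 were called higher and 6 lower in CAR ko (median log2 fold change -0.09), and 1 higher and 8 lower in PaS ko (median -0.12). The shares of all tested genes were 6.51% higher and 5.74% lower in CAR ko, and 3.41% higher and 4.03% lower in PaS ko. The CAR counts rested on single libraries: 1 was higher without CAR ko replicate 2 or CAR wt replicate 1, 2 were higher without CAR ko replicate 1, CAR ko replicate 3 or CAR wt replicate 2, 4 were lower without CAR ko replicate 1, and 3 were lower without CAR ko replicate 2 or CAR wt replicate 3. In PaS ko the counts stayed at 1 and 8 in every setting tried.

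Il6, an osteoclast-promoting cytokine, had 109, 109 and 108 FPKM in CAR ko libraries, against 91.9, 87.8 and 95.3 FPKM in CAR wt libraries (log2 fold change 0.24, adjusted p = 0.0341). It had 78.6, 73.0 and 69.2 FPKM in PaS ko libraries, against 95.3, 98.7 and 111 FPKM in PaS wt libraries (log2 fold change -0.46, adjusted p = 4.92e-04). It was thus higher in all CAR ko and lower in all PaS ko libraries than in wt, and the effects differed by 0.70 (SE 0.0985, adjusted p = 4.71e-04). The CAR call of Il6 was lost without any single CAR library except CAR wt replicate 3, at adjusted p of up to 0.12, while the difference held without any single library. Ptgs2, the prostaglandin synthase COX-2, showed the same pattern, at 13.1 ± 1.60 FPKM in CAR ko against 9.24 ± 0.908 FPKM in CAR wt libraries and 12.5 ± 0.637 FPKM in PaS ko against 20.6 ± 2.07 FPKM in PaS wt libraries (difference of effects 1.14, SE 0.161, adjusted p = 4.74e-04). Its CAR call (adjusted p = 0.0142) was lost without CAR ko replicate 1, CAR ko replicate 2 or CAR wt replicate 1, at adjusted p of up to 0.0684.

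Spp1, osteopontin, which anchors osteoclasts to bone, rose in both populations, by log2 fold changes of 0.70 in CAR ko (adjusted p = 2.99e-06, and 0.31 after quantile normalization) and 0.89 in PaS ko (adjusted p = 2.75e-07). It is also one of the osteoblast markers whose sums stand beside Pth1r. The chemokines Ccl2, Ccl7 and Ccl9, which attract osteoclast precursors, fell in both, by log2 fold changes of -0.27, -0.27 and -0.57 in CAR ko and -0.46, -0.69 and -0.68 in PaS ko. The Ccl2 call in CAR cells was lost without CAR ko replicate 1, CAR ko replicate 2 or CAR wt replicate 3, at adjusted p of up to 0.107 over all settings. Il1b, an inflammatory cytokine that raises RANKL, fell to 20.2 ± 1.60 FPKM in CAR ko, against 36.7 ± 5.21 FPKM in CAR wt libraries, and to 21.1 ± 3.50 FPKM in PaS ko, against 58.8 ± 0.876 FPKM in PaS wt libraries (adjusted p = 2.03e-04 and 7.89e-07). Osm, oncostatin M, fell by 0.96 on the log2 scale in CAR ko (adjusted p = 0.0123, lost without CAR ko replicate 2 or CAR wt replicate 3, and 0.62 with a pseudocount of 5) and by 1.76 in PaS ko (adjusted p = 1.33e-04).

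Il1b and Osm are abundant in myeloid cells, and 11 of 12 neutrophil markers were called lower in each ko comparison. These markers summed to 0.897% to 1.04% of FPKM in CAR ko, 2.03% to 2.39% in CAR wt, 1.41% to 1.45% in PaS ko and 4.58% to 4.80% in PaS wt libraries, and none was at 0 in a whole group. The part of these transcripts in the cytokine values was not tested.

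Of 17 factors that restrain osteoclasts, 11 were tested. Only Sema3a, a semaphorin that inhibits osteoclast formation, was called in CAR ko, at 2.00 ± 0.0261 FPKM against 0.884 ± 0.195 FPKM in CAR wt libraries (log2 fold change 0.68, adjusted p = 0.0194, lost without any single CAR ko library, without CAR wt replicate 3 or with a pseudocount of 5, at up to 0.106). Only Sfrp1, a secreted Wnt antagonist that binds RANKL, was called in PaS ko, at 18.9 ± 1.34 FPKM against 24.6 ± 0.595 FPKM in PaS wt libraries (log2 fold change -0.37, adjusted p = 0.0192, lost without PaS ko replicate 1 or 3 or PaS wt replicate 1 or 2, at up to 0.0853). The list had medians of 0.07 in CAR ko and 0.09 in PaS ko. Its 1 of 11 called higher in CAR ko stands beside 6.51% of all tested genes, and its 1 of 11 called lower in PaS ko beside 4.03%. Tnfrsf11b, counted apart from this list, was thus called higher in both populations while no gene of the list was.

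The receptors and factors through which stroma is told to make RANKL formed a list of 17, of which 14 were tested. In CAR ko, 3 were called higher and 0 lower (median 0.01), and in PaS ko 0 higher and 3 lower (median -0.09), while Tnfsf11 was called in neither. Among all tested genes, 6.51% were called higher in CAR ko and 4.03% lower in PaS ko. Vdr, the vitamin D receptor, rose to 67.1 ± 5.79 FPKM in CAR ko, against 42.2 ± 1.93 FPKM in CAR wt libraries (log2 fold change 0.65, adjusted p = 0.00299). Lifr, the receptor chain for leukemia inhibitory factor and oncostatin M, rose to 183 ± 2.87 FPKM in CAR ko, against 112 ± 2.31 FPKM in CAR wt libraries (log2 fold change 0.71, adjusted p = 7.06e-05). Il1r1, the interleukin 1 receptor, fell to 31.8 ± 1.06 FPKM in PaS ko, against 44.9 ± 2.60 FPKM in PaS wt libraries (log2 fold change -0.48, adjusted p = 7.15e-04). The remaining calls were Il6st in CAR ko, and Il6ra and Il17ra in PaS ko, and each was lost when single libraries were left out, Il6st without any of the 6 CAR libraries, Il6ra without PaS ko replicate 1 or 3 or PaS wt replicate 1 or 2, and Il17ra without any PaS library except PaS wt replicate 1, at adjusted p of up to 0.138, 0.172 and 0.148 over all settings.

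Genes known to respond to PTH and cAMP were read beside their receptor. Of 19 tested, 3 were called higher and 0 lower in CAR ko (median -0.02), and 1 higher and 0 lower in PaS ko (median -0.09). Beside these counts, 6.51% of all tested genes were called higher in CAR ko and 3.41% in PaS ko. Mmp13, a collagenase induced by PTH in osteoblasts, rose to 2085 ± 73.9 FPKM in CAR ko, against 1294 ± 78.9 FPKM in CAR wt libraries, and to 506 ± 17.9 FPKM in PaS ko, against 275 ± 8.41 FPKM in PaS wt libraries (adjusted p = 1.06e-06 and 8.02e-08). Mef2c, a transcription factor of osteocytes, rose to 38.5 ± 0.710 FPKM in CAR ko, against 21.4 ± 1.51 FPKM in CAR wt libraries, and Bmp2, a bone-inducing growth factor, to 22.1 ± 2.33 FPKM against 15.2 ± 1.25 FPKM. Nr4a1, an early cAMP target, had log2 fold changes of -0.04 in CAR ko (adjusted p = 0.805) and -0.22 in PaS ko (adjusted p = 0.122). Mmp13 and Mef2c are also genes of bone-forming cells, whose marker sums are given beside Pth1r.

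**Figure D4:**
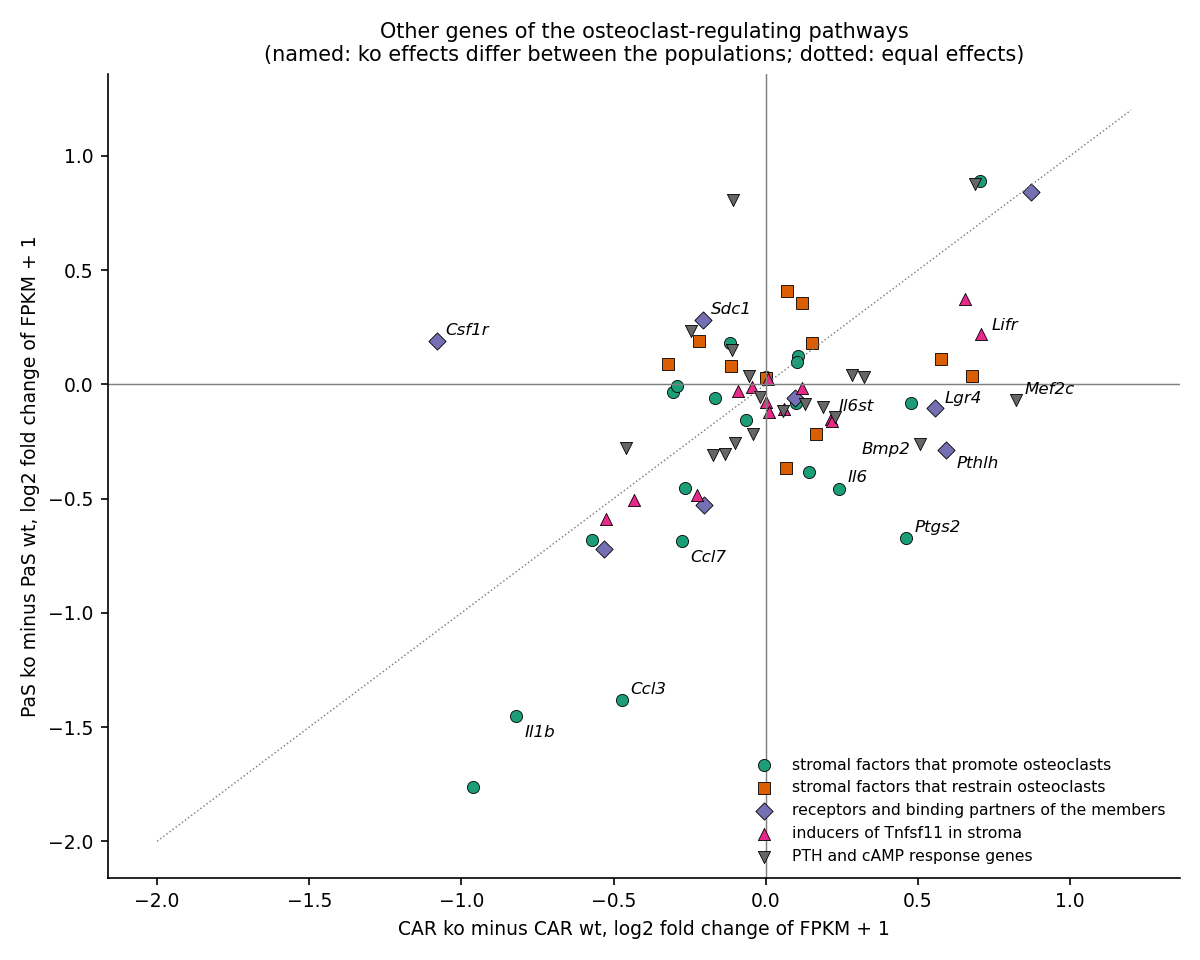
Log2 fold change of FPKM + 1, ko minus wt, in CAR cells (horizontal axis) against PaS cells (vertical axis) for tested genes of 5 lists, told apart by symbol and colour, with a dotted line at equal effects and names where the effects differ at an adjusted p under 0.05. Il6 and Ptgs2 lie right of 0 in CAR cells and below 0 in PaS cells, with differences of 0.70 and 1.14, while Osm, unnamed at the lower left, is low in both.

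Markers of osteoclasts themselves were read to check what the sorted cells held. Of the 15 markers in the files, the 6 that did not pass the filter were Tnfrsf11a, given above, and Calcr, Dcstamp, Ocstamp, Oscar and Siglec15, which reached at most 0.654 FPKM in any library. Others of the list were detected in every library, such as Atp6v0d2, a proton pump subunit, at 0.591 to 1.23 FPKM in CAR ko, 1.49 to 2.03 FPKM in CAR wt, 3.69 to 6.10 FPKM in PaS ko and 4.06 to 7.84 FPKM in PaS wt libraries. Nfatc1, a transcription factor of osteoclast formation, was at 9.09 to 23.1 FPKM over all 12. Of the 9 tested markers, 1 was called higher and 3 lower in CAR ko, and 3 higher and 2 lower in PaS ko. The 1 higher in CAR ko was Ctsk, lost without any single CAR library except CAR wt replicate 3 and without the filter, at adjusted p of up to 0.127. Car2, a carbonic anhydrase, fell to 254 ± 8.59 FPKM in CAR ko, against 355 ± 16.4 FPKM in CAR wt libraries, and rose to 278 ± 7.70 FPKM in PaS ko, against 145 ± 3.35 FPKM in PaS wt libraries (difference of effects -1.41, SE 0.0769, adjusted p = 2.43e-08). Acp5, the tartrate-resistant acid phosphatase, moved the same way, by log2 fold changes of -0.46 in CAR ko and 0.64 in PaS ko. The 2 called lower in PaS ko were Mmp9 and Itgb3. Mmp9, a matrix metalloproteinase, was called lower in both, at 20.0 to 20.4 FPKM in CAR ko, 26.8 to 41.1 FPKM in CAR wt, 24.9 to 31.1 FPKM in PaS ko and 43.6 to 50.1 FPKM in PaS wt libraries. Itgb3 was at 7.98 to 8.48 FPKM in PaS ko and 14.6 to 17.1 FPKM in PaS wt libraries. Ctsk, cathepsin K, was at 193 to 198 FPKM in CAR ko, 162 to 178 FPKM in CAR wt, 452 to 483 FPKM in PaS ko and 316 to 360 FPKM in PaS wt libraries. The part of osteoclast transcripts in these values was not tested.

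Over the 12 libraries, the genes whose log2 values tracked each member best were named among 8210 genes with a mean of at least 5 FPKM, as a description, since all libraries share the split between CAR and PaS cells. Csf1 was tracked by the chemokine gene Ccl2 (Pearson r = 0.9923), Igfbp4 (0.9913) and Samhd1 (0.9898). Il34 was tracked by Esm1 (0.9969), Tmem176b (0.9959) and the CAR cell adipokine Adipoq (0.9958). Tnfsf11 was tracked by Rrad (0.9948), the sphingosine-1-phosphate receptor S1pr3 (0.9947) and Chrdl1 (0.9943). Pth1r was tracked by Car3 (0.9985), the osteocalcin gene Bglap2 (0.9985) and Rasl11a (0.9984), and Bglap2 may share reads with its close copy Bglap. Tnfrsf11b had the loosest matches, in the matrix gene Cilp2 (0.9444), the fibromodulin gene Fmod (0.8867) and Uaca (0.8836).

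Among the members, Il34 and Tnfsf11 lay closest (r = 0.9832, 12 libraries), followed by Tnfsf11 and Pth1r (0.9753). Tnfrsf11b had r of -0.1624 with Pth1r, -0.3149 with Tnfsf11, -0.3829 with Il34 and -0.5954 with Csf1, values that include the split between CAR and PaS cells.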

How the data were processed

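RNA of 12 libraries of FACS-sorted CAR and PaS cells, 3 in each group by the labels, was prepared with oligo-dT priming and SMART-Seq v4. The deposited values are FPKM per gene as the authors made them. The submitters' processing notes name mm10, bcl2fastq 2.17.1.14, TopHat2 2.0.14, Cufflinks 2.2.1, Cuffdiff and Cuffnorm 2.2.1, with no role or order. Strand and annotation are not given in the sources used here. With FPKM only, the read depth is unknown and no count test was run. An exact 0 can be a failed estimate.

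From these values, log2(FPKM + 1) was computed and genes with at least 1 FPKM in at least 3 libraries were kept (12938 of 24347). One limma 3.58.1 fit (R 4.3.3) over all 4 groups, with trended empirical Bayes variances, gave fold changes, SE, 95% intervals and Benjamini-Hochberg adjusted p over all tested genes, with calls under 0.05. Fold changes on this scale understate those of low genes. Ratios of 2 genes within a library were compared by exact permutation. Promoters are RefSeq sequences of GRCm38.p6, matched by symbol for 3 of 5 members (Csf1, Tnfsf11 and Pth1r, not Il34 and Tnfrsf11b).

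The members and lists were chosen with earlier results of these data known. Named were every member, Ebf1 and the 3 genes best correlated with each member (mean of at least 5 FPKM, predicted genes and small RNAs left out). Other list genes were drawn from up to 3 called genes with the smallest p per list and comparison. Many genes that met this rule are not named, so the named ones are a choice among them. Lists of lymphoid and endothelial markers were also read and are not described. Ly6a, Tnfrsf11a, Pth, Matn1, Col1a1, Col1a2, Gsn, Lgr4, Ccl3, Ccl9, Osm, Nr4a1, Calcr, Dcstamp, Ocstamp, Oscar, Siglec15, Atp6v0d2 and Nfatc1 were added after their values were seen, as were the alternatives for list genes. Alternatives were other pseudocounts, filters, scalings, library weights, fits of only the groups compared, a replicate block, zeros as missing and leaving out each library.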

Additional observations from a re-analysis of the deposited data

Results flagged for a closer look

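None of the 5 genes was singled out by these comparisons, and 16 genes of the lists around them were. For these 16, the effect of the ko genotype in CAR cells differed from that in PaS cells at an adjusted p under 0.05 in the limma fit. Of all tested genes, 6.58% were called so. The lists held 20 tested promoting factors, 11 restraining factors, 8 receptors and partners, 14 inducers of Tnfsf11, 19 PTH and cAMP response genes and 9 osteoclast markers. They were chosen with earlier results of these data known. Each value is the log2 fold change of ko against wt in CAR cells minus that in PaS cells.

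Among factors that promote osteoclasts, the difference was 0.70 for Il6, 1.14 for Ptgs2, 0.41 for Ccl7, 0.63 for Il1b and 0.91 for Ccl3. The Il1b and Ccl3 differences were lost when several single libraries were left out (adjusted p of up to 0.0853 for Il1b). Among receptors and partners it was 0.88 for Pthlh, 0.66 for Lgr4, -0.49 for Sdc1 and -1.27 for Csf1r. The Csf1r difference was lost without the filter (adjusted p = 0.0525), and the Lgr4 difference without any of 9 single libraries. Among inducers of Tnfsf11 it was 0.49 for Lifr and 0.37 for Il6st, both lost when several single libraries were left out (adjusted p of up to 0.0714 and 0.0593).

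Among PTH and cAMP response genes it was 0.89 for Mef2c and 0.77 for Bmp2. Among osteoclast markers it was -1.41 for Car2, -1.10 for Acp5 and 1.13 for Itgb3, an integrin chain that fell by 0.85 on the log2 scale in PaS ko against PaS wt libraries (adjusted p = 0.0011) and was not called in CAR cells (0.28, adjusted p = 0.248).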

How the results depend on the processing

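The calls of Csf1, Tnfrsf11b and Pth1r in PaS cells, of Pth1r in CAR cells and of all members between CAR and PaS cells held in every alternative run. Of 425 recomputed member fold changes, 402 kept their direction and side of the threshold, 13 lost a call, 9 gained one and 1 reversed: Tnfsf11 in CAR cells, at -0.10 to 0.0127 without single libraries, was above 0 without CAR wt replicate 3 (adjusted p = 0.967). Against 3 members called in CAR ko, 1 was called without the filter and 1 to 2 without single libraries. For the difference between populations, against 0, 1 member (Il34) was called after quantile normalization, with zeros as missing, with a pseudocount of 5, under median-ratio scaling or at a 5 FPKM filter, and 0 to 1 without single libraries. With a pseudocount of 5, the log2 ratio of Tnfsf11 to Tnfrsf11b was 1.52 higher in CAR wt than PaS wt and 1.70 higher in CAR ko than PaS ko libraries. With a pseudocount of 1 these differences were 1.79 and 1.96, as a larger pseudocount shrinks log ratios. Genes called without single libraries numbered 1129 to 1261 in CAR cells, 748 to 835 in PaS cells and 643 to 771 for the difference. Deviations of same-numbered libraries from their group means correlated at -0.041 to 0.108. With 3 libraries a group, and numbers that may not follow animals, this cannot tell whether CAR and PaS cells came from the same mice. The comparisons of CAR with PaS cells took the libraries as independent. With the replicate block 1585 genes were called in CAR cells and 961 in PaS cells, and 2 members in CAR cells. Fitting only the groups compared gives no value for the difference. Depth is unknown, so no counting error can be given, and 3 libraries a group limit the precision.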
